A study of Mus musculus with 7 samples.

Results

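The regions described here are 2323 stretches of open chromatin that were present in every library of the study but stood lower among the peaks of allogeneic than of syngeneic marrow recipients. They were selected on the measured values: on chromosomes 1 to 19 and X, peaks of the 7 libraries with 1 bp or more in common were merged, and regions with a peak in all 7 were kept. Each region then took, in each library, its highest rank percentile within that library's own list by the −log10 of the q-value, where 100 is the strongest peak of the list. A region was a member if its highest Allo percentile lay below its lowest Syn percentile and the Syn mean exceeded the Allo mean by at least 10 points. Of 103809 merged regions, 50324 were shared by all 7 libraries, and the members were 2323 of these, or 4.62%. The mirrored rule found 2580 shared regions (5.13%) that ranked higher in Allo. Because these percentiles chose the members, the differences between recipient types at members are given as a description, without a test.

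The cells were Lgr5+ intestinal stem cells of B6-GFP-Lgr5 mice, which carry a GFP reporter of Lgr5 by which the cells were sorted. All recipients were female, 8 to 12 weeks old, and lethally irradiated before bone marrow transplantation, so irradiation is common to both groups and no unirradiated animals are compared here. Syn recipients (3 libraries) were given syngeneic marrow within B6-GFP-Lgr5, and Allo recipients (4 libraries) were B6-GFP-Lgr5 mice given BALB/c marrow, a mismatch that can cause graft-versus-host disease. Cells were taken 7 days after transplantation, each library from 50000 sorted cells of 3 to 4 pooled mice, and assayed by Omni-ATAC-seq, in which the Tn5 transposase cuts and tags accessible DNA. The sort rests on the Lgr5 reporter alone as far as the labels state it, and recovery of cells, like the number of mice behind a pool, is not given per library.

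Open chromatin marks gene starts and distal regulatory elements, where nucleosomes give way to bound transcription factors. Gene starts, above all those rich in CpG dinucleotides, are open in most cell types, while distal elements are open in fewer cell types and carry much of the difference between them. Crypt stem cells of the intestine divide and yield the absorptive enterocytes, which take up sugars, peptides and fats, and the secretory lineages, and elements near genes of the mature cells are often already open in the stem cell.

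Gene starts were less common in members than in shared regions at large, and most of the promoters there held few CpG dinucleotides. Promoter sequences came from RefSeq (GRCm38.p6, the same build as mm10) and run from 250 bases before to 50 after the gene's start. The table held 26794 genes, 17273 of them among the 21627 protein-coding genes used here. Of its promoters, 102 had their start inside a member, and 66 of these belonged to protein-coding genes. They lay in 96 members (4.13%), where 21.7% of all shared regions and 7.33% of those ranked higher in Allo held a start. Those of 5 genes are printed in the direction of transcription because they show the CpG-poor starts found among the members. The start of the lncRNA gene 4930543I11Rik and those of Gstm2 and Kmo follow from the naming rule, and those of Cyp8b1 and Ugt2a3 were chosen after their values were seen. Capitals mark matches to motif letters, on either strand: AP-1 in 4930543I11Rik (TGACTCA), NFY in Gstm2 (CCAAT), CDX in Kmo (TTTATNG), HNF4 in Cyp8b1 (CAAAGTCCA), and CDX, NFY and GATA, searched with the letters AGATAA, in Ugt2a3, where the CDX and NFY matches overlap.
4930543I11Rik: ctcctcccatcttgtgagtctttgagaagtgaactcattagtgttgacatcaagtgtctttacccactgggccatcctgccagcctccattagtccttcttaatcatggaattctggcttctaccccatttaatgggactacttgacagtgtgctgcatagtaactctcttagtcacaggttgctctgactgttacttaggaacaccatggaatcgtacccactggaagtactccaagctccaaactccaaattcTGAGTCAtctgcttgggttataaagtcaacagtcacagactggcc
Gstm2: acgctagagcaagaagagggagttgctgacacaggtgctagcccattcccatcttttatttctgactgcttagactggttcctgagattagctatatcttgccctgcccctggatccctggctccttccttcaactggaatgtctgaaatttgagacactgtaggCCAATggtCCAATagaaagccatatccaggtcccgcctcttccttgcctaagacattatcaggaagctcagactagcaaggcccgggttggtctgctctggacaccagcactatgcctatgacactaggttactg
Kmo: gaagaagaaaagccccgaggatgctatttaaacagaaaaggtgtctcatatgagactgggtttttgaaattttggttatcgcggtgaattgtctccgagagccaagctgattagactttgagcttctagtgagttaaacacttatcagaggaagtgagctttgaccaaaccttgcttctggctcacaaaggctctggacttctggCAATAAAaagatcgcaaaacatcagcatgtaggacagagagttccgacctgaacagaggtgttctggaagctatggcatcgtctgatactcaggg
Cyp8b1: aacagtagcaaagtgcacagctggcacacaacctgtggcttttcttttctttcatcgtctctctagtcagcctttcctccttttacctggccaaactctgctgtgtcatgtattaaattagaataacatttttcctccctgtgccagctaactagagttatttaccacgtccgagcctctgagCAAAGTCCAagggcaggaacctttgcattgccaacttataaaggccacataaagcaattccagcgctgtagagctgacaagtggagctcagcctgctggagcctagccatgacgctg
Ugt2a3: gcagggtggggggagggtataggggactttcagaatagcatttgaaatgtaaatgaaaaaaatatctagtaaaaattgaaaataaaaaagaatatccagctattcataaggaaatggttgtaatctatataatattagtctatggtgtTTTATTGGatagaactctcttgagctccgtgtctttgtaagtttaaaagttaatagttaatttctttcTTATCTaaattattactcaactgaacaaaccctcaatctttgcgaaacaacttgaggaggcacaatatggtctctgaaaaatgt

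These promoters hold 1, 3, 7, 5 and 2 CpG dinucleotides in the order printed. The first is at chr10:67785493-67785792 (plus strand), inside the member with the second largest difference of means. The Gstm2 promoter, of a glutathione transferase gene, is at chr3:107986371-107986670 (minus strand). The Kmo promoter, of the kynurenine 3-monooxygenase gene, is at chr1:175631943-175632242 (plus strand). The promoter of Cyp8b1, the sterol 12-alpha-hydroxylase of bile acid synthesis, is at chr9:121916256-121916555 (minus strand). The promoter of Ugt2a3, a UDP-glucuronosyltransferase that conjugates bile acids and xenobiotics, is at chr5:87337146-87337445 (minus strand).

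Over the 102 member promoters the median number of CpG dinucleotides in 300 bases was 7. It was 21 for the 12663 promoters whose start lies in any shared region and 12 for the 207 in regions ranked higher in Allo. Protein-coding genes held 66 of the member promoters, 10692 of those in all shared regions and 156 of those in regions ranked higher. The part of gene type was not tested, and a start shared by genes counted for each gene. Promoters with at most 10 CpG were 70 of the 102 member promoters (68.6%), while 32 held more. The share was 19% in all shared regions and 43.0% in regions ranked higher. Weaker regions hold fewer CpG-rich starts, and the members are of middle rank, so the same values were taken within regions of a mean percentile of 20 to 80. There the medians were 6 for members, 15 for all shared regions and 12 for regions ranked higher, and the shares with at most 10 CpG were 70.5%, 36.7% and 45.3%. A start lay in 4.04% of the members of these levels, 9.96% of all shared regions and 6.90% of regions ranked higher. Over the whole promoter table, with 1 start per gene, the median was 7 and the share 57.7%.

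In these promoters 14 motifs were searched on both strands, as exact letters. The KLF/SP letters GGGCGG, a GC-rich box, were in 32.4% of the member promoters, 54.1% of those in regions ranked higher, 65.8% of those in all shared regions and 36.2% of all promoters of the table. The ETS letters CCGGAAG were in 3.92%, 10.1%, 17.1% and 9.20% of the same sets. The GATA letters were in 11.8%, 6.76%, 5.84% and 11.4%, and the CDX letters in 10.8%, 9.66%, 6.91% and 11.2%. The AP-1 letters were in 5.88%, 5.31%, 3.63% and 5.19%, and the NFY letters in 28.4%, 32.4%, 37.9% and 38.1%. Within regions of a mean percentile of 20 to 80, members lay closer to all shared regions for the 4 motifs given next. There the KLF/SP letters were in 31.6% of member promoters, 52.6% of those ranked higher and 54.4% of all shared, and the ETS letters in 3.16%, 10% and 7.62%. The GATA letters were in 12.6%, 6.84% and 7.98% at these levels, and the NFY letters in 29.5%, 31.6% and 29.4%. The HNF4 letters were in 1 member promoter, that of Cyp8b1. No member promoter held the TCF (CTTTGAT), NRF1 (GCGCATGCG), CRE (TGACGTCA) or YY1 (AAGATGGCG) letters. In all shared regions 2.48%, 3.48%, 3.20% and 2.95% of the promoters held them, shares at which few of 102 promoters would. The remaining motifs were GAS (TTCNNNGAA), the E-box (CACGTG) and the interferon-stimulated response element. A match is a description of the letters and not of a bound site, and the distal members, most of the set, were not searched.

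Some features of the libraries bear on every value. List lengths were 71925, 73668 and 76438 peaks in Syn and 62977, 76091, 88861 and 81719 in Allo. The number of reads is unknown. The background pileup is the lowest expected number of overlapping fragments that solves a library's deposited folds and p-values. It was 4.93, 5.34 and 4.65 in Syn and 4.46, 4.46, 3.28 and 3.05 in Allo. Fragments here are the units piled up in peak calling, and whether these were whole fragments or reads is not given. The peaks of Allo 1 and 2 carry names that start with gvhd, and those of Allo 3 and 4 carry names that start with S, although the labels describe all 4 as gvhd. Peaks at gene ends of Epcam, Cdh1, Krt8, Vil1, Cdx2, Lgr5, Olfm4 and Ascl2, markers of epithelium and of stem cells, were in all 7 libraries. Of the markers of leukocytes, endothelium and stroma, Cd3e, Cd3d, Cd8a, Ncr1, Ptprc, Csf1r, Pecam1, Cdh5 and Pdgfra had a gene-end peak in 0 of 7 libraries, and Itgam, Cd79a and Col1a1 in 7. In chromatin of sorted cells, a region open in fewer cells and a region less open in each cell cannot be told apart.

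In the Syn libraries the members ranked like other shared regions, and in the Allo libraries they ranked well below them. Their median percentile was 63.5, 63.4 and 65.2 in Syn 1 to 3, close to the medians of all shared regions there, 64.7, 65.6 and 66.8. It was 33.3, 49.7, 43.4 and 44.7 in Allo 1 to 4, where all shared regions had 59.4, 66.5, 71.2 and 68.9. Regions ranked higher in Allo, chosen by the mirrored rule, had medians of 37.5, 38.7 and 39.1 in Syn and 56.6, 58.7, 67.7 and 63.0 in Allo, so they too ranked nearer to all shared regions in the group where they were high. Both patterns come from the values that chose the regions.

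**Figure D1:**
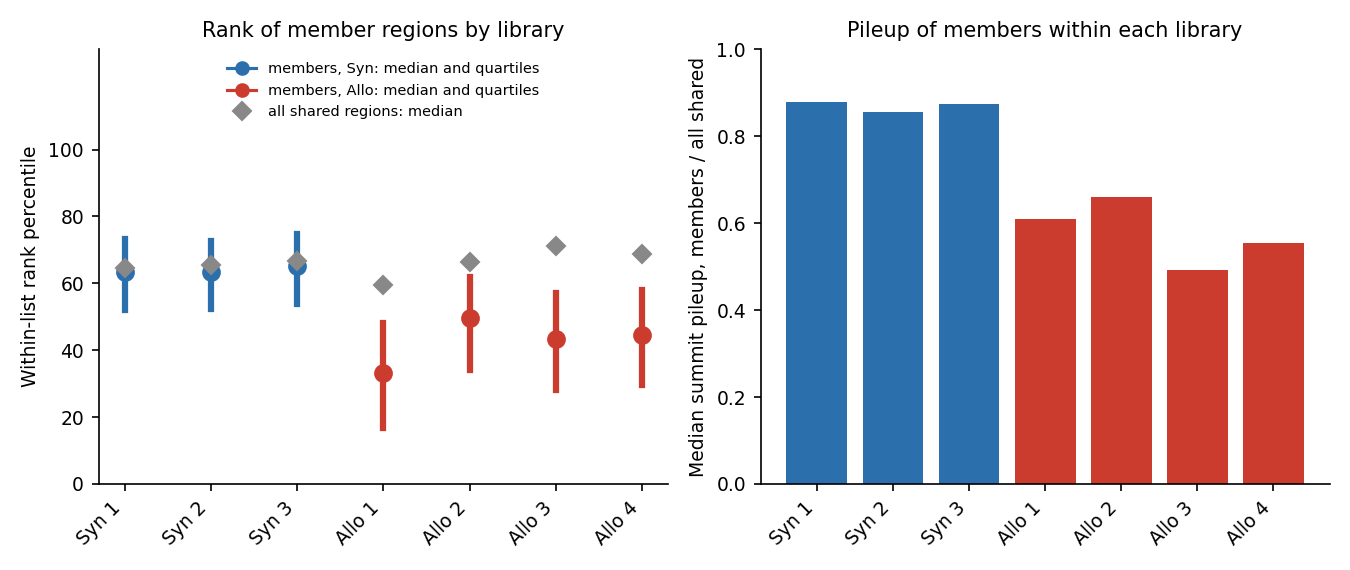
Left, within-list rank percentile of the 2323 members in each library (circles, medians; bars, range between the quartiles; blue, Syn; red, Allo) and the median of all 50324 shared regions (grey diamonds). Right, median summit pileup of the members divided by that of all shared regions in the same library. Syn circles lie on the diamonds and Allo circles below them, and the ratio is 0.855 to 0.879 in Syn and 0.492 to 0.661 in Allo; these values chose the members or come from the same peaks.

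The pileup is the whole number of fragments, in the sense given above, over the summit that solves a peak's deposited fold and p-value together. It showed the same difference in plain counts. The median summit pileup of the members was 51, 53 and 55 fragments in Syn and 28, 37, 32 and 31 in Allo. All shared regions had 58, 62 and 63 in Syn and 46, 56, 65 and 56 in Allo, so that the members had 0.879, 0.855 and 0.873 of the shared median in Syn and 0.609, 0.661, 0.492 and 0.554 in Allo. The ratio is taken within a library, so a common scaling of its pileups cancels. The authors' fold over background at members was 6.27, 6.15 and 6.72 in Syn and 4.39, 5.31, 5.58 and 5.68 in Allo. Over all shared regions the fold was 5.80, 5.75 and 6.23 in Syn and 5.49, 6.15, 7.24 and 7.13 in Allo. In Syn the members thus lay above the shared median by fold and below it by pileup. The strongest peak of a member was 647, 671 and 674 bp wide in Syn and 392, 515, 517 and 520 bp in Allo. For all shared regions the widths were 668, 697 and 693 bp in Syn and 552, 615, 726 and 683 bp in Allo. All of these come from the peaks whose ranks chose the members.

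The members varied widely in how far the recipient types lay apart. The difference of means ran from 10.005 to 56.04 points, with a median of 19.5 and quartiles of 14.8 and 25.4. It was at least 20 points in 1109 members, at least 30 in 297, at least 40 in 50 and at least 50 in 7. The gap between the lowest Syn and the highest Allo library was narrower, with a median of 4.61 points. This gap was at least 10 points in 433 members (18.6%) and under 1 point in 278. The median range over libraries at members was 21.8 points in Allo and 7.48 in Syn, where all shared regions had 15.2 and 7.91. The Allo range is taken over 4 libraries and the Syn range over 3, and a range tends to widen with more libraries.

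The 4 Allo libraries did not contribute alike. Allo 1 was the lowest of the 4 in 1383 members (59.5%), Allo 3 in 427, Allo 4 in 341 and Allo 2 in 172. Allo 2 was the highest in 1132 (48.7%), so it most often set the narrow side of the gap. Allo 1 has the shortest list, and the part of list length in its ranks was not tested. Values with all lists cut to the shortest length are in the closing section. Just inside the threshold of 10 points lay members at Ugt1a6a (10.01 points), a glucuronosyltransferase gene, and Acox2 (10.03 points), a peroxisomal oxidase of bile acid precursors. Just outside it lay separated regions near Atoh1 (9.99 points), the factor of secretory fate, and Lrat (9.97 points), the retinol esterifying enzyme. Another 987 shared regions separated the recipient types with a smaller difference of means, and 3314 had a difference of at least 10 points without separation.

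A measure that the choice did not use came from leaving out 1 Syn and 1 Allo library at a time, choosing regions by the same rule in the other 5 and reading the difference in the 2 left out. Over the 12 such pairs, 2436 to 5005 shared regions were chosen. In the libraries left out, the median Syn minus Allo difference of the chosen regions was between 4.15 and 26.1 points, with a median over pairs of 9.40. Over all shared regions it was between -3.91 and 4.36 points, with a median of -1.06. The left-out Syn library stood above the left-out Allo library in 64.4% to 95.2% of the chosen regions (median 76.5%) and in 31.9% to 69.7% of all shared regions (median 42.9%). The difference at chosen regions exceeded that of all shared regions in 12 of 12 pairs, by 4.72 to 21.8 points.

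Each Allo library, when left out, stood lower at regions chosen without it, but by unlike amounts. With Allo 1 left out the difference was 22.9, 23.96 and 26.1 points with Syn 1, 2 and 3, and with Allo 2 left out it was 4.15, 4.31 and 6.23. Allo 3 gave 6.96, 7.24 and 10.8 points and Allo 4 gave 8.92, 9.89 and 12.3. Across all shared regions Allo 1 already ranked 2.85 to 4.36 points lower than the left-out Syn library, and Allo 3 had a median difference of -3.91 to -2.43 points. These pairs share libraries and every chosen region had to hold a peak in all 7, so the 12 values are not independent and carry no test.

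**Figure D2:**
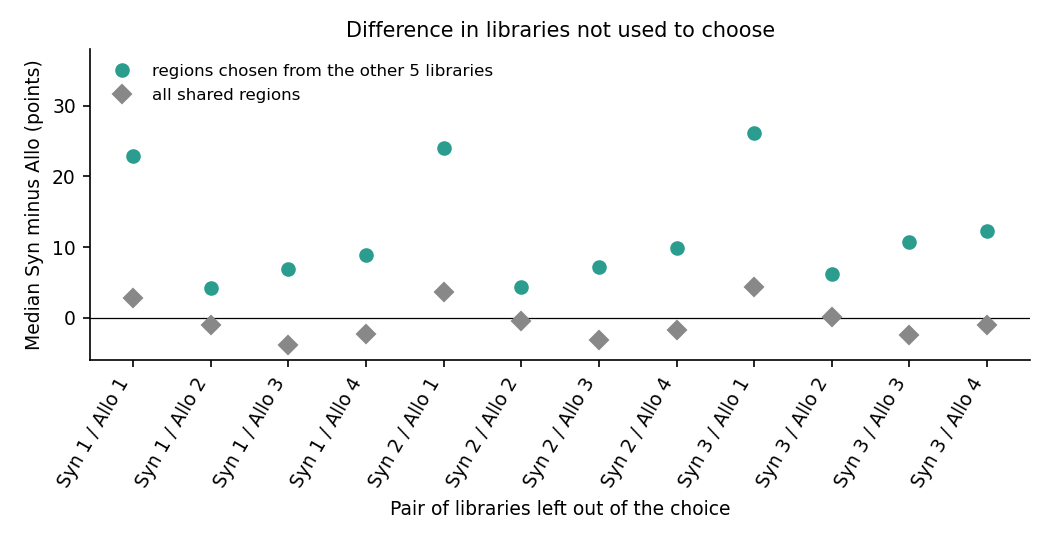
Median Syn minus Allo rank percentile (points) in 1 Syn and 1 Allo library left out of the choice, for regions chosen from the other 5 libraries (green circles) and for all shared regions (grey diamonds). The circles lie between 4.15 and 26.1 points and above the diamond in each of the 12 pairs, highest for pairs with Allo 1.

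The rule also asks how many regions other divisions of the 7 libraries into 4 and 3 would give. Of the other 34 divisions, 2 gave more regions ranked lower in the group of 4 than the 2323 of the recipient types. Those with Allo 2, 3 and 4 as the group of 3 numbered 3940, and those with Syn 3, Allo 3 and Allo 4 as that group numbered 3038. A further one, with Syn 2, Allo 3 and Allo 4 as that group, gave 2321. The median of the other 34 was 454.5 and the lowest 45. The number of members was therefore not the largest that a division of these libraries gives, and the 2 divisions above it both set Allo 3 and 4 apart from Allo 1.

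The members with the largest differences lay at genes of many functions and often far from genes. The largest was in the body of Zfp119a, a zinc finger gene, at chr17:55869179-55869781, with percentiles of 58.4, 62.3 and 69.2 in Syn and 4.55, 5.48, 6.99 and 12.0 in Allo. The means were 63.3 ± 5.46 (SD, n = 3) and 7.27 ± 3.34 (SD, n = 4), and the summit pileups were 39, 45 and 51 fragments against 17, 17, 15 and 16. All 4 Allo libraries were close to the bottom of their lists there, and the gap to the lowest Syn library, 46.4 points, was the widest among the members.

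The second member, at chr10:67785329-67786151, covers the start of the lncRNA gene 4930543I11Rik printed above, and no protein-coding gene lay within 50 kb. Its percentiles were 63.4, 61.5 and 73.1 in Syn and 2.44, 32.9, 4.19 and 5.15 in Allo, so that Allo 2 stood apart from the other 3 Allo libraries. The summit of this region lay 1 bp from the annotated start. The member in the body of Zmat4 at chr8:23756155-23756770, had 74.8, 73.0 and 75.7 in Syn and 18.2, 15.4, 28.2 and 20.1 in Allo, with pileups of 53, 53 and 55 against 21, 20, 21 and 18 fragments. Zmat4 had an SD over libraries of 1.34 points in Syn and 5.50 in Allo.

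Others of the 25 with the largest differences were in the bodies of Ube3c, a ubiquitin ligase gene (67.6, 67.6 and 65.2 in Syn; 7.22, 22.9, 6.99 and 24.1 in Allo), and of Vangl2, a gene of planar cell polarity (70.0, 57.6 and 61.9 in Syn; 3.50, 25.7, 19.1 and 7.09 in Allo). In the body of Bdh1, the mitochondrial enzyme that interconverts ketone bodies, the percentiles were 84.1, 68.2 and 72.3 in Syn and 3.86, 28.4, 35.6 and 31.8 in Allo. Lpar3, a receptor for lysophosphatidic acid, had 59.8, 48.7 and 66.5 in Syn and 7.22, 8.48, 14.0 and 16.1 in Allo. Groups did not overlap at any of these, by the rule. Near Grik1, Allo 4 at 53.8 was far above Allo 1 to 3, which had 18.2, 19.2 and 14.0, and Syn had 78.6, 69.8 and 82.1.

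**Figure D3:**
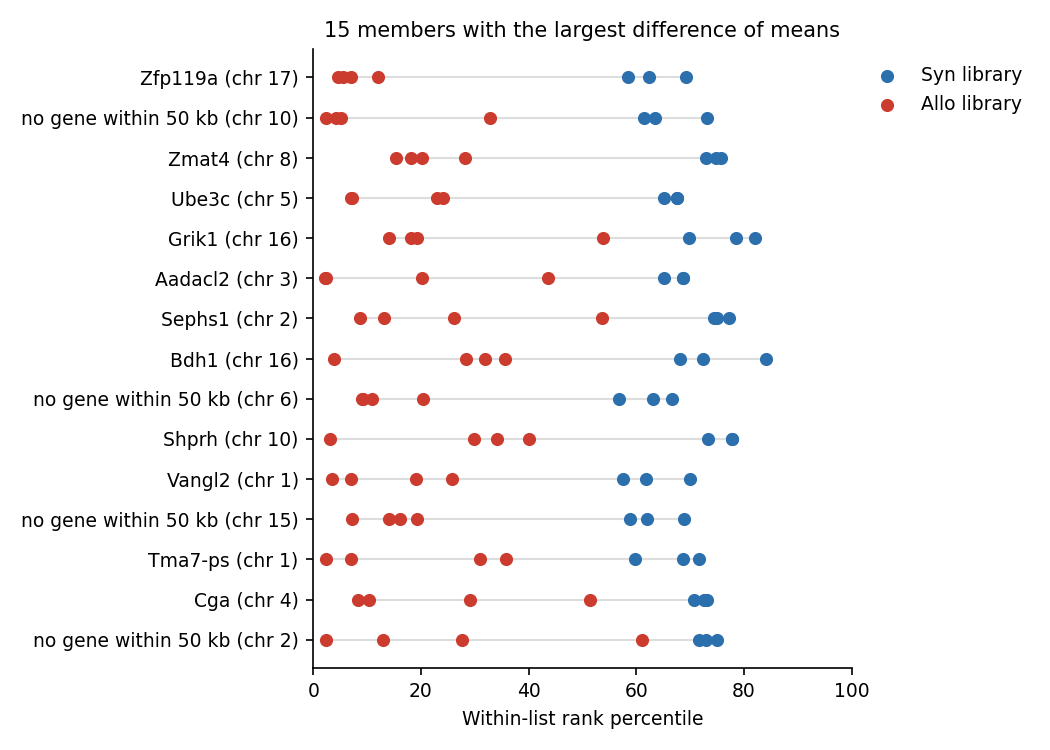
Within-list rank percentile in each library (blue, 3 Syn; red, 4 Allo) for the 15 members with the largest difference of means, named by their assigned protein-coding gene and chromosome. The rule separates the groups in every line; the Allo libraries lie close together at Zfp119a and Zmat4, while at several others 1 Allo library lies well above the rest.

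The highest-ranked members, chosen by their Syn mean, differed by less. Near Lss, the lanosterol synthase of cholesterol synthesis, a member had 92.9, 90.3 and 94.1 in Syn and 59.4, 75.5, 75.5 and 86.2 in Allo, and a second in the gene's body had 76.9, 76.5 and 82.1 against 45.8, 60.8, 57.7 and 34.3. In the body of Myo19, a mitochondrial myosin, the percentiles were 93.3, 92.3 and 95.8 in Syn and 79.3, 84.5, 75.2 and 83.6 in Allo. Only 53 members had a mean over all 7 libraries above 80, which is 0.368% of the shared regions at that level. Regions ranked higher in Allo were also rare there, with 40 (0.278%). Near the top of the scale the rule leaves little room for a difference of 10 points, so this is no trait of the members.

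Few members lay at gene ends and many lay far from genes, properties the rule did not use. The gene table gives no strand, so a region counted as at a gene end when it came within 1 kb of the start or the stop coordinate of a protein-coding gene. This held for 151 members, 6.50% (95% exact Clopper-Pearson interval 5.53 to 7.58%), against 26.5% of all shared regions and 11.6% of the regions ranked higher in Allo. No protein-coding gene lay within 50 kb of 424 members (18.3%), against 8.97% of all shared regions and 9.53% of those ranked higher. Gene bodies held 49.6% of members and 54.4% of shared regions. The median merged width was 812 bp for members, 889 bp for all shared regions and 720 bp for regions ranked higher.

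Gene ends are strong peaks, and members are of middle rank, so position was also compared within bands of 20 points of the mean percentile over the 7 libraries, a comparison added after seeing the data. From 40 to 60, gene ends held 6.49% of 986 members, 9.36% of the regions ranked higher and 12.1% of all shared regions. From 60 to 80 they held 4.63% of 648 members, 16.3% of the regions ranked higher and 18.7% of all shared regions. From 20 to 40 the shares were closer, 8.07%, 8.23% and 10.8%. Regions with no gene within 50 kb were 18.8% of members against 10.8% of all shared regions from 40 to 60, 20.2% against 10.1% from 60 to 80, and 14.5% against 11.1% from 20 to 40.

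**Figure D4:**
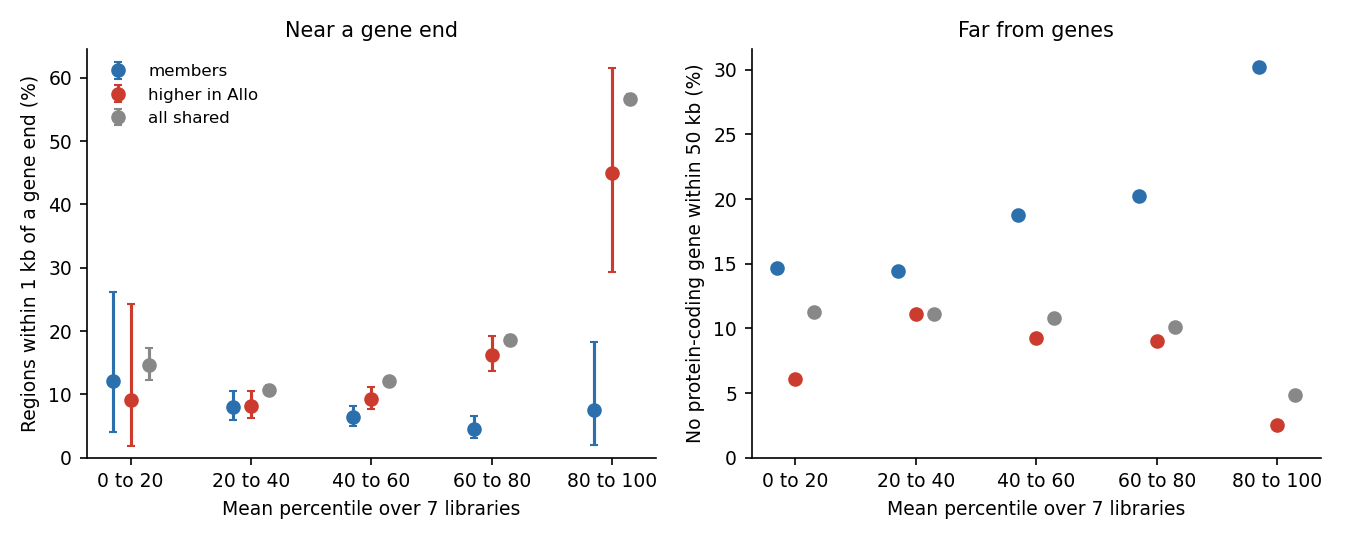
Share of regions within 1 kb of a protein-coding gene end (left; bars, 95% exact Clopper-Pearson intervals, counting error only) and with no protein-coding gene within 50 kb (right), by band of the mean percentile over the 7 libraries. From 40 to 80, members (blue) lie below all shared regions (grey) and regions ranked higher in Allo (red) at gene ends, and above both far from genes; the lowest and highest bands hold 41 and 53 members.

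Members were spread over all chromosomes analysed, from 3.13% of the shared regions of chromosome 11 to 5.96% of those of chromosome 13. On the X chromosome 53 of 892 shared regions (5.94%) ranked lower and 24 (2.69%) higher, while on chromosome 11 118 ranked lower and 213 higher (5.64%). Another member lay within 50 kb of 22.1% of the members, of 17.5% of all shared regions and of 16.5% of the regions ranked higher. In the neighbourhood, 1885 shared regions lay within 10 kb of a member and were no members themselves. Their median difference was -0.844 points, near the -0.437 of all shared regions. For the 8277 such regions within 50 kb it was -0.480 points.

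The 1899 members with a protein-coding gene belonged to 1592 of the 15085 genes with any shared region, of which 248 had at least 2 members and 42 at least 3. Of the 1592, 344 also had a region that ranked higher in Allo. Several genes with many members also had many shared regions: Arhgap26 had 6 members of 26 shared regions, Auts2 6 of 35, Etl4 5 of 27, Rad51b 5 of 31 and Zfhx3 4 of 33. Sema6a, a transmembrane semaphorin that acts in axon guidance, had 5 members of 9 shared regions and Bche 4 of 4.

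Bche, which encodes butyrylcholinesterase, had 4 shared regions that were all members. At the region over its start (chr3:73707667-73708931) the percentiles were 77.0, 78.5 and 80.1 in Syn and 70.6, 72.2, 56.0 and 51.9 in Allo. A region outside the gene, at chr3:73724584-73726128, had 71.2, 72.6 and 70.0 in Syn and 48.8, 59.7, 31.3 and 48.9 in Allo. Allo 2 was the highest Allo library at all 4 regions, and it came within 0.642 points of the lowest Syn library at chr3:73673074-73673953 (83.8 against 84.4).

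Ugt2a3 had 3 shared regions and all were members. The one over its start, printed above (chr5:87336866-87337681), had percentiles of 61.5, 55.9 and 57.6 in Syn and 43.4, 51.6, 21.4 and 21.8 in Allo. The farthest, at chr5:87372855-87373782, had 71.3, 76.1 and 76.8 in Syn and 44.6, 62.0, 10.3 and 20.1 in Allo, with pileups of 53, 63 and 61 against 29, 39, 16 and 18 fragments. Here Allo 3 and 4 were the lowest libraries and Allo 2 again the highest, unlike the members at large, where Allo 1 was most often lowest.

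Genes of bile acid and xenobiotic metabolism were grouped by symbol after the named members had been seen, so their counts are a description only. Of 30 shared regions assigned to Ugt genes, which encode UDP-glucuronosyltransferases, 6 (20%) were members and 0 ranked higher, where 4.62% and 5.13% of all shared regions did. Of 118 at Cyp genes, the cytochromes P450, 13 (11.02%) were members and 5 ranked higher. Of 32 at Ces genes, the carboxylesterases, 3 were members and 1 ranked higher, and of 47 at Gst genes 3 were members and 6 ranked higher. Regions at genes whose symbols start with Slc, a large and mixed set of transporters, stood at the background, with 53 of 1149 lower (4.61%) and 56 higher.

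The member over the start of Cyp8b1 had percentiles of 63.4, 68.4 and 75.8 in Syn and 33.3, 48.8, 44.2 and 47.6 in Allo, with pileups of 45, 49 and 57 against 25, 32, 27 and 27 fragments. The member over the start of Gstm2 had 77.8, 75.8 and 89.7 in Syn and 29.8, 73.7, 37.0 and 47.6 in Allo, where Allo 2 nearly reached the Syn libraries. At the start of Kmo they were 50.1, 55.6 and 55.7 in Syn and 26.1, 35.8, 14.0 and 24.1 in Allo. In the body of Cyp2j11, a cytochrome P450 gene, the percentiles were 53.6, 61.5 and 48.9 in Syn and 14.3, 11.9, 17.7 and 24.1 in Allo, and all 4 Allo libraries lay at least 24.8 points below the lowest Syn library. Both members near Cyp2c55 had their lowest value in Allo 1 (36.5 and 4.55) and their highest Allo value in Allo 2 (75.4 and 65.3).

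Of 31 gene lists, absorptive enterocyte genes had the largest share of members. Of 126 shared regions at 30 of these genes, 12 (9.52%) ranked lower, at 9 genes, and 7 (5.56%) ranked higher, and the median difference over all 126 was 1.22 points against -0.437 for all shared regions. Leaving out libraries moved all shared regions as well as the list. Without Allo 1, 10 of 134 regions of the list ranked lower (7.46%) and 11 higher (8.21%), where 4.91% and 10.2% of all shared regions did. Without Allo 2 the list had 21 of 125 lower (16.8%) and 8 higher (6.4%), against 7.98% and 6.98%. Without Allo 3 and 4 it had 19 of 134 lower (14.2%) and 10 higher (7.46%), against 12.4% and 5.34%. Without Allo 1 and 2 it had 22 of 133 lower (16.5%) and 16 higher (12.03%), against 8.56% and 21.2%. In each of these 4 settings the list's share of lower regions lay above that of all shared regions. The excess was least without Allo 3 and 4. These settings reuse the libraries that chose the members, and the list was singled out from 31 on their values. The shares are therefore a description. The list's median difference was -0.923 points without Allo 1 and -0.528 without Allo 1 and 2. It was 2.03 points without Allo 2 and 2.67 without Allo 3 and 4.

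Slc2a2, which encodes the glucose and fructose transporter GLUT2, had 2 members of 4 shared regions. The one outside the gene body (chr3:28695450-28696620) had 57.8, 57.8 and 59.3 in Syn and 7.22, 51.8, 17.7 and 37.3 in Allo. In it Allo 2 lay nearest to Syn, and Allo 1 and 3 were low.

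Near Fabp2, the intestinal fatty acid binding protein, 1 of 5 shared regions was a member (chr3:122876896-122877920), with 60.7, 64.5 and 68.0 in Syn and 41.0, 45.5, 40.9 and 29.7 in Allo. The region at the Fabp2 gene itself was no member, with means of 73.3 in Syn and 72.2 in Allo. Mme, the peptidase neprilysin of the brush border, had 2 members, of which the one with the larger difference had 85.1, 84.1 and 83.6 in Syn and 44.97, 77.3, 48.5 and 70.8 in Allo. Other members lay at or near Slc15a1, the peptide transporter PEPT1, Slc5a1, the sodium-glucose cotransporter SGLT1, the brush border enzymes Mgam and Anpep, and Ezr, which encodes the microvillus protein ezrin, with differences of 16.1 points at Slc15a1, 11.4 at Slc5a1, 15.1 at Mgam and 15.1 at Anpep.

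Lipid and retinol genes had 9 members among 130 shared regions (6.92%) and 5 regions ranked higher (3.85%). They lay at Ppara, the fatty acid sensing nuclear receptor, at Mogat2, which makes diacylglycerol for fat export, at Rdh7, a retinol dehydrogenase, at the oxidation enzymes Acaa2 and Hadh, at Acsl5, and 3 times at Ppargc1a, a coactivator of mitochondrial genes. The Rdh7 member was even within groups, with 70.9, 71.6 and 65.9 in Syn and 50.4, 53.2, 49.4 and 51.4 in Allo. At Ppara the spread was wide, with 51.3, 46.0 and 41.6 in Syn and 3.29, 40.5, 23.96 and 25.9 in Allo. Without Allo 1 this list had 8 regions lower (5.80%) and 10 higher (7.25%) of 138, against 4.91% and 10.2% of all shared regions. By rank of fold it had 4 and 4 of 129 (3.10% each), against 4.13% lower and 4.07% higher.

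Transcription factors of gut epithelial identity had 10 members of 175 shared regions (5.71%) at 6 genes, and 6 regions ranked higher. Among them, Foxa2, Tcf12 and Prdm1 had 2 members each, and Ehf and Esrra 1. The Foxa2 member with the larger difference had 53.6, 64.0 and 65.2 in Syn and 4.55, 38.6, 6.99 and 45.2 in Allo, with Allo 1 and 3 low and Allo 2 and 4 between. Near Ehf, an epithelial ETS factor, the values were 47.8, 48.2 and 52.2 in Syn and 23.1, 31.1, 35.1 and 22.8 in Allo. Without Allo 1 the list had 9 lower (4.81%) and 12 higher (6.42%) of 187, against 4.91% and 10.2% of all shared regions.

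Of 174 shared regions at crypt stem cell genes, 5 were members (2.87%, against 4.62% of all shared regions) and 17 (9.77%) ranked higher. Lgr5 itself had 1 member of 6 shared regions, in its body (chr10:115492075-115494492), with 67.7, 65.4 and 68.8 in Syn and 28.1, 56.4, 58.2 and 56.1 in Allo. Allo 1 stood far below the other 3 there. At the start of Lgr5 the Syn and Allo means were 67.5 and 66.2, and no region of Olfm4 or Ascl2 was a member. The other 4 were at or near Znrf3, which removes Wnt receptors, Lrig1, a damper of growth factor receptors, Smoc2 and Ephb2. Without Allo 3 and 4 the list had 16 lower (8.79%) and 17 higher (9.34%) of 182, against 12.4% and 5.34% of all shared regions. Without Allo 1 and 2 it had 13 lower (6.77%) and 51 higher (26.6%) of 192, against 8.56% and 21.2%. By rank of fold it had 7 lower (4.02%) and 9 higher (5.17%) of 174, near the 4.13% and 4.07% of all shared regions.

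Notch pathway and secretory fate genes had 8 members of 111 (7.21%) and 10 regions ranked higher (9.01%), against 4.62% and 5.13% of all shared regions. The share of lower regions moved with the libraries used. Without Allo 3 and 4 it was 22 of 115 (19.1%), against 12.4% of all shared regions. Without Allo 1 and 2 it was 5 of 124 (4.03%), against 8.56%. Of the receptors, Notch1 had 2 members and Notch2 1, of the ligands Dll1 and Jag1 had 1 each, and Maml3, a coactivator of Notch transcription, had 3. Wnt signalling genes had 6 members of 202 (2.97%) and 14 ranked higher, the members lying at the repressors Tcf7l1, Tle4 and Tle1, the secreted inhibitor Sfrp5 and the ligand Wnt9b. In the body of Tcf7l1 the percentiles were 32.9, 41.8 and 39.4 in Syn and 1.34, 14.1, 9.03 and 2.02 in Allo. BMP and TGF-beta genes had 1 member of 126 (0.794%), in the body of the activin receptor gene Acvr1b, with 59.6, 63.6 and 61.6 in Syn and 16.4, 20.2, 28.9 and 32.7 in Allo. By rank among the shared regions only, the BMP list had 9 of 126 lower (7.14%), against 6.76% of all shared regions. By rank of fold it again had 1 of 126 (0.794%), against 4.13%. Eph receptors and ephrins had 3 of 84 (3.57%) and 10 ranked higher.

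Chromatin regulators had 9 members of 119 (7.56%) and 6 regions ranked higher. Hdac4, a histone deacetylase gene, had 3 members, Arid1b, a subunit of the BAF remodelling complex, 2, and the deacetylase Hdac9, the DNA demethylating enzyme Tet3, the DNA methyltransferase Dnmt3a and the H3K27 methyltransferase Ezh2 1 each. In the body of Ezh2 (chr6:47565302-47566231) the percentiles were 54.5, 59.3 and 51.3 in Syn and 41.5, 28.6, 29.6 and 21.4 in Allo. Allo 1 was the highest Allo library at this member, unlike at most. The strongest member of Hdac4 had 81.6, 84.5 and 82.5 in Syn and 30.4, 66.3, 51.8 and 62.2 in Allo. Without Allo 1 the list had 11 lower (8.46%) and 15 higher (11.5%) of 130, against 4.91% and 10.2% of all shared regions.

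Genes of the p53 response had 5 members of 67 (7.46%) and 1 region ranked higher. These lay at or near Pmaip1, which encodes the death effector NOXA, the kinase gene Plk2, the stress genes Sesn1 and Ddit4, and the nuclease gene Aen. Near Pmaip1 the percentiles were 66.3, 70.1 and 73.0 in Syn and 36.5, 55.9, 34.2 and 47.6 in Allo. In Sesn1 they were 47.7, 45.7 and 51.7 in Syn and 30.8, 40.3, 29.0 and 25.6 in Allo. The median difference over the 67 regions was -0.803 points, on the other side of 0 from the balance of the counts, and by rank of fold 2 ranked lower (2.99%) and 1 higher (1.49%), against 4.13% and 4.07% of all shared regions.

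Genes of NF-kB and STAT3 inflammation had 6 members of 103 (5.83%) and 8 regions ranked higher. The NF-kB subunit gene Relb had 79.9, 74.6 and 84.3 in Syn and 39.1, 62.9, 28.9 and 48.4 in Allo. Nfkbiz, an inducible regulator of NF-kB, had 34.9, 38.5 and 42.4 in Syn and 7.84, 10.1, 10.3 and 5.15 in Allo, with the 4 Allo libraries close together. The chemokine genes Cxcl5 and Ccl20, Nos2 and Nfkbia had 1 member each.

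At interferon response genes, 1 of 83 shared regions (1.20%) was a member and 13 (15.7%) ranked higher, against 4.62% and 5.13% of all shared regions. The member was in the body of Irf8, a factor of the interferon response and of myeloid cells, with 69.4, 64.3 and 65.1 in Syn and 55.5, 53.3, 56.2 and 43.3 in Allo. Another region of Irf8 ranked higher in Allo, so the gene held both directions. MHC class II genes had 0 members of 40 and 10 ranked higher (25%), and MHC class I genes 0 of 47 and 2 higher (4.26%), in lists so short that the share over all shared regions would also give few members. When regions were ranked by the authors' fold in place of −log10 q, the balance turned, with 10 lower (12.05%) and 4 higher (4.82%) at interferon genes and 8 lower (19.05%) and 4 higher (9.52%) at class II genes, against 4.13% and 4.07% of all shared regions.

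Marker lists of other cell types had shares of members on both sides of the 4.62% of all shared regions, from small counts. Pan-haematopoietic genes had 3 members of 37 (8.11%), 1 in Ikzf1 and 2 in Lcp1, with 5 regions ranked higher (13.5%). B and myeloid genes had 2 of 27 (7.41%), at Adgre1 and near Itgax, with 3 higher (11.1%). T and NK cell genes had 0 of 14 and 1 higher, and endothelial and stromal genes 1 of 55 (1.82%), near Cdh5, and 5 higher (9.09%). Tuft cell genes, of a chemosensory epithelial lineage, had 3 of 49 (6.12%) and 13 higher (26.5%). Goblet cell genes had 2 of 70 (2.86%) and 6 higher, Paneth cell genes 1 of 27 (3.70%) and 1 higher, and enteroendocrine genes 0 of 22 and 1 higher. The part of other cells in the ranks of the members was not tested.

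The remaining lists stood below or near the shares of all shared regions. Epithelial adhesion genes had 5 members of 186 with 8 higher, epithelial identity markers 2 of 72 with 4 higher, nuclear receptors 5 of 175 with 10 higher and YAP and regenerative genes 1 of 80 with 6 higher. Immediate early genes had 4 of 108 with 4 higher, unfolded protein response genes 3 of 59 with 2 higher, cell cycle genes 2 of 66 with 3 higher, cell death genes 2 of 93 with 4 higher and mitochondrial respiration genes 0 of 57 with 1 higher.

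**Figure D5:**
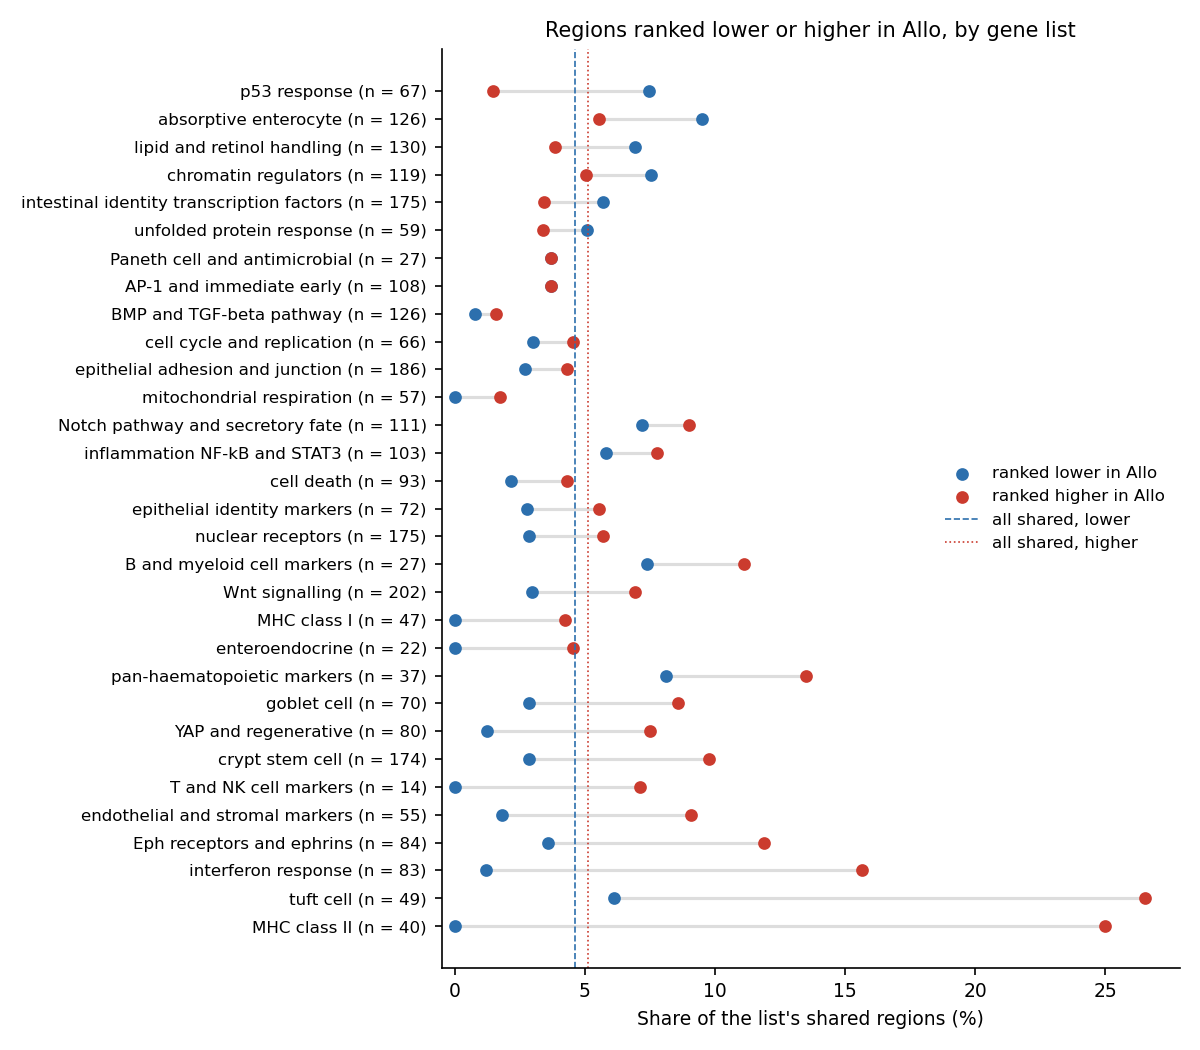
Share (%) of the shared regions of each of 31 gene lists that ranked lower in Allo (blue, members) or higher in Allo (red), with the shares over all shared regions as lines (4.62%, dashed; 5.13%, dotted); n is the number of shared regions of the list. Absorptive enterocyte genes have the largest share of members (9.52%), and MHC class II and tuft cell genes the largest shares ranked higher (25% and 26.5%).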

How the data were processed

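Omni-ATAC-seq peaks of 3 Syn and 4 Allo libraries were used. Per the submitters' processing notes the build was mm10 and the tools were MACS2, MACS3, Bowtie2 and Trim Galore, with neither role nor version. Threshold, read shift and filters bear on widths and pileups and are not given in the sources used here. For each library the authors deposited 1 list of peaks, not pooled, with a score, a fold (ratio) over background, the −log10 of p and q and the summit. These are each peak's own values and were ranked only within a list.

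Percentiles gave tied peaks their mean rank. Pileups were solved from the deposited fold and −log10 p within 0.001, which 100% of peaks allowed. Regions were assigned to the protein-coding RefSeq gene (GRCm38.p6) whose body holds them, otherwise to the nearest within 50 kb; 692 of 704 list genes matched. Members and lists were chosen with earlier results of these data known. No test was run, since the rule used the contrast. Named regions were the 25 largest differences, the 10 highest Syn means, up to 4 per list, the 10 genes with most members, those nearest the threshold and up to 10 at gene starts; others in the text were chosen after their values were seen, and a few are not reported here. The code of the rule was run on simulated data with the noise of the Syn libraries in every library. The median range at shared regions was wider over the 4 Allo than over the 3 Syn libraries. That run therefore bears on the code only and not on the members. Alternatives are in the closing section. Intervals cover counting error only, and depth is unknown. Identical peaks were under 0.05% between any 2 lists. Python 3.11.15, numpy 2.4.6, scipy 1.17.1, pandas 2.3.3 and matplotlib 3.10.9 were used.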

Additional observations from a re-analysis of the deposited data

Results flagged for a closer look

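In 12 of the 175 named regions 1 of the 4 Allo libraries lay far from the other 3. This was judged by the ratio of its gap to the whole Allo range. About 1 in 20 groups of unselected values would pass this by chance. The named regions were selected on their percentiles, so the 12 are given as a description. Allo 1 was the low library at 6 of them, with percentiles of 6.34 near Ccl20, 1.04 in Arhgap26, 2.44 in Auts2, 4.55 at Ugt1a9, 28.1 in Lgr5 and 5.76 near Dnajb9. Allo 2 was the high library at 4, with 26.4 in Tle4, 69.5 at a second region of Auts2, 20.5 at a region of chromosome 6 and 32.9 at the region of chromosome 10 that covers the start of 4930543I11Rik, both with no protein-coding gene within 50 kb. Allo 4 was high near Grik1 (53.8) and Allo 3 at a region of chromosome 7 with no such gene within 50 kb (54.3). Over all members, Allo 1 had the narrowest strongest peaks, with a median of 392 bp, and the lowest median −log10 q, 9.29, against 13.9 to 14.8 in Allo 2 to 4. Allo 1 also had the lowest medians over all shared regions, with 552 bp against 615 to 726 bp and a −log10 q of 18.4 against 24.5 to 32.1 in Allo 2 to 4. The width of members relative to all shared regions was 0.710 in Allo 1 and 0.712 in Allo 3.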

How the results depend on the processing

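The 2323 members numbered 2013 to 3400 under the other rankings, thresholds on q, overlaps and windows tried, and 1109 when the means had to differ by at least 20 points. Leaving out 1 library gave 2693 to 4058 members, the highest without Allo 2, and 87.5% to 98.7% of the members were kept. With fewer libraries the rule asks for less. Without Allo 3 and 4 there were 6370 members and without Allo 1 and 2 there were 4825. Ranking by the authors' fold gave 2078, of which 1501 were the same regions (64.6% of the members), and lists cut to the shortest length gave 2573, of which 1500 were the same. The held-out difference, as a median over pairs, kept its sign in the 9 settings in which it was computed (6.69 to 14.9 points). It was not computed with libraries left out. Its range over pairs was 4.15 to 26.1 points in the main setting. With lists cut to the shortest length the range was 5.44 to 15.7 points, and by rank among shared regions 5.66 to 15.9.

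The share of members at gene ends was 6.50% and became 10.3% by rank of fold, 7.89% by the mean percentile of a region's peaks, 10.5% without Allo 3 and 4 and 4.91% with a window of 500 bp, against 24.05% to 28.9% of all shared regions. It was 6.05% to 7.501% when 1 library was left out. The median width was 756 to 791 bp when 1 library was left out and 610 bp with merged windows of a fixed width around summits.

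The rule did not pair samples by replicate number. Deviations from the group means at shared regions correlated by 0.0755, -0.0333 and 0.0742 between libraries of the same number. Between libraries of other numbers the correlations ran from -0.0926 to 0.0376, so Syn 1 with Allo 1 and Syn 3 with Allo 3 lay above these. All were weak, and pairing was not tested. Peak names of the Allo libraries carry other numbers than the labels. A replicate block, with Syn above Allo in each of the 3 same-numbered pairs, a mean paired difference of at least 10 points and Allo 4 left out, gave 4385 regions, 8.07% of them at gene ends. Low percentiles rest on few fragments by the solved pileups. Depth is unknown, and no interval for a single region can be given.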

Other observations

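Some genes outside the lists had several members, and they are named here after their values were seen. Ifi47, an interferon-inducible GTPase gene, had 2 members among its 4 shared regions. The first, at chr11:49078533-49079104, had percentiles of 59.4, 79.2 and 67.4 in Syn and 5.40, 48.5, 47.8 and 35.9 in Allo. The second, at chr11:49089059-49089568, had 50.5, 46.2 and 51.4 in Syn and 15.3, 31.8, 22.7 and 40.8 in Allo. No shared region of Ifi47 ranked higher in Allo, but 1 that lies between these 2 had a difference of means of -11.6 points without separation.

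Several other genes, of differing functions, had 2 or 3 members. Trpm6, a channel for magnesium uptake, had 3 members of 9 shared regions, with differences of 33.3, 23.5 and 13.1 points. Mep1b, a subunit of the brush border protease meprin, had 3 of 6, with 23.3, 19.5 and 14.9 points. Slc26a3, the chloride and bicarbonate exchanger, had 2, with 25.4 and 18.4 points. Lamc1, a laminin chain of basement membranes, had 3 of 5, with 29.6, 13.4 and 13.2 points.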
